A study of Homo sapiens with 9 samples.

Results

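The replication-dependent histone genes encode the linker histone H1 and the core histones H2A, H2B, H3 and H4 that package newly copied DNA. They were taken here as every protein-coding gene whose symbol in the deposited tables places it in one of the histone clusters (HIST1, HIST2, HIST3 or HIST4), which gave 72 genes out of 58174 annotated genes, of which 19799 are protein-coding. There were 6 H1, 17 H2A, 18 H2B, 16 H3 and 15 H4 genes. Total RNA of ES-2 cells, an established human ovarian cancer line, was sequenced after ribosomal RNA had been removed, so that transcripts without a poly(A) tail were kept. The 9 libraries fell into 3 groups of 3: cells transfected with a control siRNA (siC), with siRNAs to the RNA-binding protein IGF2BP1 (siIGF2BP1, called siImp1 in the sample titles) or with siRNAs to the transcription factor SRF (siSRF). All cells were grown in DMEM with 10% fetal bovine serum and harvested 72 h after transfection. The question was which transcripts depend on each of these proteins. Nothing in the labels says that the 3 libraries of a group came from separate cultures, so the p-values measure the spread between these libraries, which may be technical.

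These genes are transcribed in S phase, when the histone proteins are needed to wrap the new DNA into nucleosomes. Their messenger RNAs typically carry no poly(A) tail. They mostly end in a short stem-loop that is bound by the stem-loop binding protein SLBP and cut free by a U7 small nuclear RNP. SLBP stays on the RNA during export and translation, and at the end of S phase the same stem-loop serves in its rapid decay. Because bulk RNA was measured, fewer cells in S phase and less histone RNA per cell cannot be told apart here.

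The libraries held 6421764 to 9416175 reads on genes. The targeted genes followed the labels: IGF2BP1 was 12.8, 13.5 and 12.1 FPKM (fragments per kilobase of transcript, scaled to the reads of the library, so a level per length) in siC and 4.18, 4.14 and 4.02 in siIGF2BP1, and SRF was 13.6, 14.1 and 16.0 in siC and 1.63, 1.36 and 1.42 in siSRF. SRF was also lower in siIGF2BP1, at 5.80, 5.42 and 6.80 FPKM (log2 change −1.26). Of 7 markers listed for these cells, VIM was 837 to 1065 FPKM and KRT18 and KRT8 were present, while PAX8, WT1 and EPCAM were at most 0.262 FPKM and MUC16 was 0. Among the markers of other cell types, PTPRC, CD3E, ALB, INS and MYH7 were 0 and PECAM1 was at most 0.387 FPKM in every library.

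The stem-loop is the feature that sets these transcripts apart, and its letters are shown because they divide the members into H4 and all other classes. The stem-loops were read from GENCODE v44 transcripts as 2 complementary arms of 6 bases, here in capitals, around a loop of 4 bases in lower case, written 5′ to 3′ in DNA letters.
42 members, H1, H2A, H2B and H3: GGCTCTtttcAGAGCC
10 members, H1, H2A, H2B and H3: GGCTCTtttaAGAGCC
10 members, all H4: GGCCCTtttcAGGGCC
4 members, all H4: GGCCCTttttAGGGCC
HIST2H2AC: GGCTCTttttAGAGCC
HIST1H2BI: GGCTCTtctaAGAGCC
HIST1H3E: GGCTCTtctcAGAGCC
HIST1H4L: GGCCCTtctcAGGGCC
One of these 8 sequences was found in 70 of the 72 members (97.2%), which are all the members with either pair of arms around any 4-base loop. Either pair of arms around any 4-base loop was found in 35 of 19630 other protein-coding genes (0.178%). In 68 members the stem-loop ended within 20 bases of the end of a transcript. HIST1H2AG and HIST1H2AK were the members in which no such stem-loop was found. The search took only exactly complementary arms within the annotated transcripts, so a mismatch or a shorter annotation would be missed. No H4 gene held a stem-loop with the arms of the other classes, and no gene of the other classes held one with those of H4.

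Most members are packed together in the genome (coordinates on GRCh38, GENCODE v44). The HIST1 genes, 56 of the 72, lie at chr6:25723397-27893891, the 12 HIST2 genes lie on chromosome 1 between 143894544 and 149887965, the 3 HIST3 genes at chr1:228424845-228463104, and HIST4H4 stands alone at chr12:14767999-14771131. The annotation gives 54 members single-exon transcripts only and 18 a spliced transcript. Several members are near-identical copies, and HIST1H4J and HIST1H4K share 92.1% and 92.6% of their 50-base windows with another member. Values of single copies are therefore uncertain, and summed reads per class are given beside them.

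Promoter sequences (RefSeq, GRCh38.p14, 250 bases before to 50 after the start) were matched to 66 members by current symbol and position, each with a window of its own, although the windows of divergent neighbours overlap. A site in such an overlap counts for both neighbours. The TATA motif TATAAA, searched on both strands, was in 68.2% of them and in 11.5% of all 35116 promoters. CCAAT was in 84.8% against 34.6%, although in only 3 of the 13 H4 promoters. The octamer ATTTGCAT, a site bound by the POU factor OCT1, was in 37.9% against 1.77%, with 11 of 16 H2A and 14 of 18 H2B promoters and none of the 6 H1, 13 H3 or 13 H4 promoters. In 4 members, all of them H2B genes, the octamer precedes the TATA motif in 1 short stretch, both read in the direction of transcription and in capitals. They are shown because these genes recur in the results.
HIST1H2BG, chr6:26216714-26216737, minus strand: tATTTGCATgaaaggccTATAAAa
HIST1H2BJ, chr6:27132817-27132843, minus strand: tATTTGCATaagcgattctaTATAAAa
HIST1H2BK, chr6:27146879-27146905, minus strand: tATTTGCATgagaggtcctaTATAAAa
HIST2H2BE, chr1:149886706-149886729, minus strand: aATTTGCATaaggtggtTATAAAa
The CArG box, the motif that SRF binds, was in 2 of the 66 promoters (3.03%) against 1.29% of all promoters. Both matches are the same box, in capitals, between the divergent genes HIST2H2AC and HIST2H2BE, 81 bases before the start of the first and 164 bases before that of the second.
HIST2H2AC, chr1:149886827-149886856, plus strand: ggttctgaagCCATATTAGGaccaatgaaa
A match of letters is a description of the sequence and not evidence of binding.

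In control cells the histone transcripts split into a large abundant set and a small set with hardly any reads. In siC, 60 members had a mean of at least 10 FPKM and the other 12 were below 2 FPKM, with none in between. The median was 181 FPKM over all members, and by class it was 500.6 for H1, 221 for H2A, 103 for H2B, 218 for H3 and 170.4 for H4. FPKM divides by the deposited gene length, which ran from 297 to 5477 bases. It was above 1000 bases for 8 of 18 H2B genes and 0 of 6 H1 genes. Rankings by FPKM between genes or classes therefore depend on these lengths as well. HIST1H4K was the most abundant H4 gene (1794 ± 86.1 FPKM, mean ± SD, n = 3), and HIST1H3B, which encodes the replication-coupled histone H3, was the most abundant H3 gene (1506 ± 101). HIST1H1C and HIST1H1B led the linker histones at 1008 ± 82.7 and 1007 ± 38.1 FPKM. The 12 low members include the testis histone genes HIST1H1T, HIST1H2AA, HIST1H2BA and HIST3H3, and none had more than 8 reads in any library. HIST1H2BA, HIST1H3D.1, HIST2H3PS2 and HIST3H3 had no read in any of the 9 libraries. In 5 of the low members, HIST1H2AD, HIST1H2AM, HIST1H3D, HIST1H3D.1 and HIST1H3J, 40.3% to 96.6% of the exon bases are overlapped by another gene on the same strand. How reads in such overlaps were counted is not given in the sources used here.

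**Figure D1:**
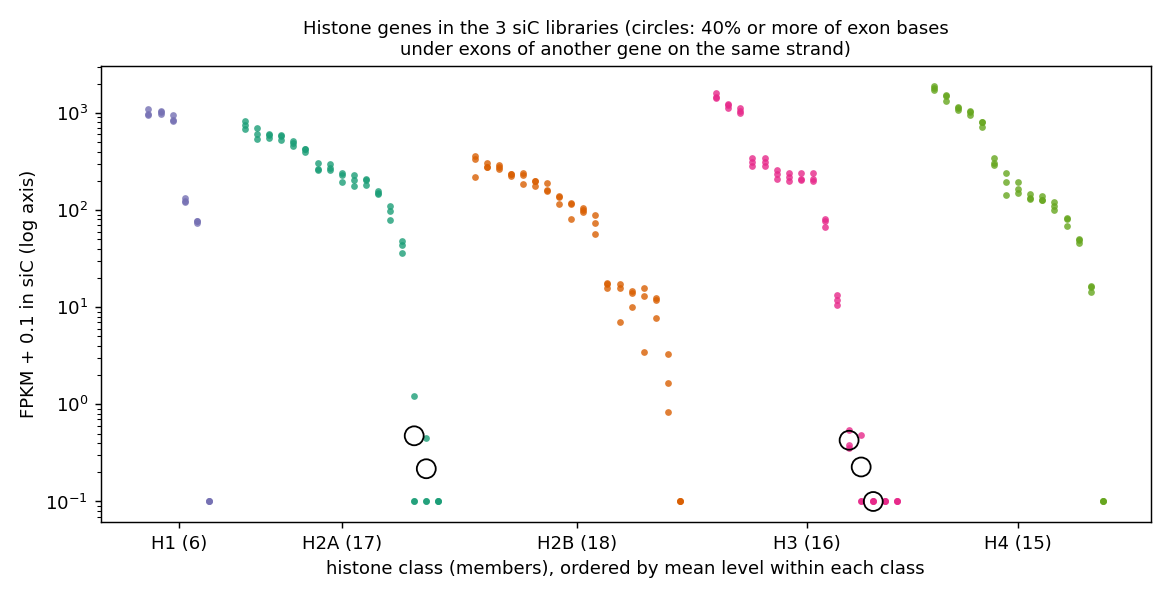
Levels of the 72 histone genes in siC as FPKM + 0.1 on a log axis, with 1 point per library and the genes of each class ordered by their mean; circles mark genes with at least 40% of their exon bases under another gene on the same strand. The means of 60 genes lie at or above 10 FPKM and those of the other 12 below 2 FPKM.

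Together the members took 1.31% to 1.44% of the reads on genes in siC, 0.682% to 0.771% in siIGF2BP1 and 0.877% to 0.950% in siSRF. Their summed reads, as RPM (reads scaled to a common library size with the authors' factors), were 12771, 14277 and 13157 in siC, 7612, 6580 and 7279 in siIGF2BP1, and 9067, 9813 and 9483 in siSRF. All knockdown libraries lay below all control libraries, and the siIGF2BP1 libraries lay below the siSRF libraries. The siIGF2BP1 mean was 53.4% and the siSRF mean 70.5% of the siC mean. Since the genes were chosen as a set with results known, these sums carry no test.

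The sums of each class followed the same order. Linker histone H1, which binds the DNA between nucleosomes, summed to 2020, 2277 and 2081 in siC, 1139, 981 and 1084 in siIGF2BP1 and 1159, 1233 and 1260 in siSRF, or 50.2% and 57.3% of siC. H2A was 53.0% of siC in siIGF2BP1 and 75.3% in siSRF. H2B, its dimer partner in the nucleosome, was 1887, 1977 and 1614 in siC, 1008, 808 and 854 in siIGF2BP1 and 1137, 1287 and 1049 in siSRF, or 48.8% and 63.4%. H3 was 52.2% and 70.5%, and H4, its partner in the central tetramer, was 59.2% and 78.7%. No class of either knockdown overlapped siC. In H2B, siC replicate 3 was the lowest control library.

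**Figure D2:**
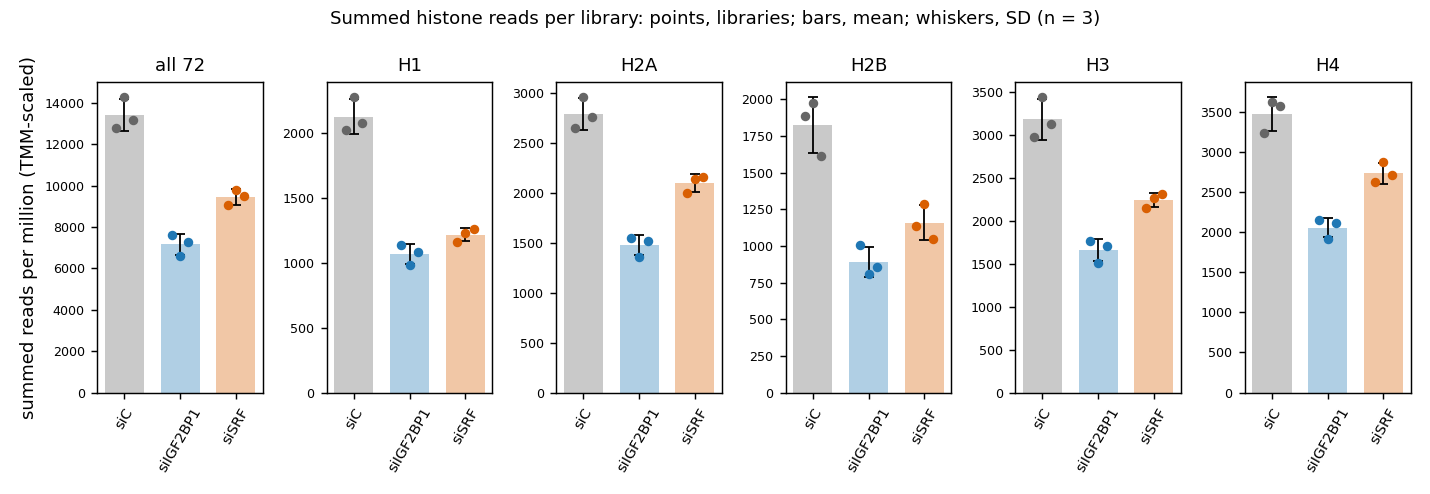
Summed reads of each histone class in each library, in RPM after the authors' scaling, with 1 point per library, bars for the mean of each group and whiskers for the SD (n = 3). All 3 siIGF2BP1 and all 3 siSRF libraries lie below the 3 siC libraries in every class.

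Upon IGF2BP1 depletion, 52 members fell and none rose (limma on log2(FPKM + 0.1), adjusted p at most 0.01 over all genes tested). Another 13 were not called, and 7 were below the minimum mean of 0.1 FPKM in the comparison, among them the testis genes named above. Of all 22292 genes tested, 3.57% were called lower and 3.55% higher. The median log2 fold change was −0.92 over the 65 members tested and 0.02 over all genes. By class, 5 of 6 H1, 14 of 17 H2A, 12 of 18 H2B, 10 of 16 H3 and 11 of 15 H4 genes fell, with class medians of −0.97, −0.90, −1.21, −0.91 and −0.82. In 59 members the 3 siIGF2BP1 values lay below the 3 siC values without overlap, which held for 17.6% of all genes tested, and in none did they lie above, which held for 18.1% of all genes. limma-voom on the reads recovered from the FPKM called 59 members lower and 0 higher, against 8.48% and 8.59% of all genes. At an unadjusted p under 0.05, 60 members were lower and 0 higher, and the share of all genes at that limit was not taken. With 1 library left out the count was lower, at 36 without siC replicate 1 and 38 without siIGF2BP1 replicate 1. It dropped to 31 and 32 without siC replicates 2 and 3, and to 34 and 16 without siIGF2BP1 replicates 2 and 3. Lower calls over all genes fell as well, from 796 to 224 without siIGF2BP1 replicate 3 and to 296 to 329 without any other library.

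Upon SRF depletion, 35 members fell, none rose and 30 were not called, of which 27 had a negative value. Of all 21857 genes tested, 5.34% were called lower and 6.85% higher. The median was −0.56 over the 65 members tested and 0.01 over all genes, with class medians of −0.85 for H1, −0.49 for H2A, −0.89 for H2B, −0.52 for H3 and −0.41 for H4. By class, 4 H1, 7 H2A, 10 H2B, 8 H3 and 6 H4 genes fell. The groups did not overlap, with siSRF lower, in 54 members and in 19.0% of all genes tested, and with siSRF higher in none and in 20.9%. limma-voom called 53 members lower and 0 higher, against 10.7% and 12.7% of all genes. At an unadjusted p under 0.05, 54 members were lower and 0 higher, and here too the share of all genes was not taken. The 35 dropped to 21 without siC replicate 2, and to 14, 13 and 15 without siSRF replicates 1, 2 and 3. Over all genes the 1167 lower calls became 607, 494, 482 and 595 in these fits. Both knockdowns were set against the same siC libraries, so the pair of comparisons is not independent.

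The difference between the knockdowns was therefore tested directly, without siC. In this comparison 25 members were lower in siIGF2BP1 than in siSRF, 4 were higher (HIST1H1D, HIST2H2AB, HIST1H3E and HIST4H4) and 36 were not called. Of all 22311 genes tested, 11.2% were lower and 8.82% higher, so higher calls were a smaller share of the members than of all genes. The median was −0.34 over the members and 0.02 over all genes. The libraries did not overlap in 40 members with siIGF2BP1 lower, against 23.3% of all genes, and in the same 4 with siIGF2BP1 higher, against 22.8%. limma-voom called 37 lower and 4 higher, against 16.3% and 14.7%. The lower calls by limma on FPKM were spread as 2 H1, 7 H2A, 3 H2B, 5 H3 and 8 H4 genes. Leaving out 1 library gave 10 to 18 lower calls, with 12 without siIGF2BP1 replicate 3 and 14, 10 and 15 without siSRF replicates 1, 2 and 3. The 4 higher calls became 1 without siIGF2BP1 replicate 1, 2 or 3 or without siSRF replicate 2, and 2 without siSRF replicate 1. Over all genes, leaving out 1 library took the lower calls from 2492 to 1577 to 1951. The higher calls went from 1968 to 1214 to 1455.

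**Figure D3:**
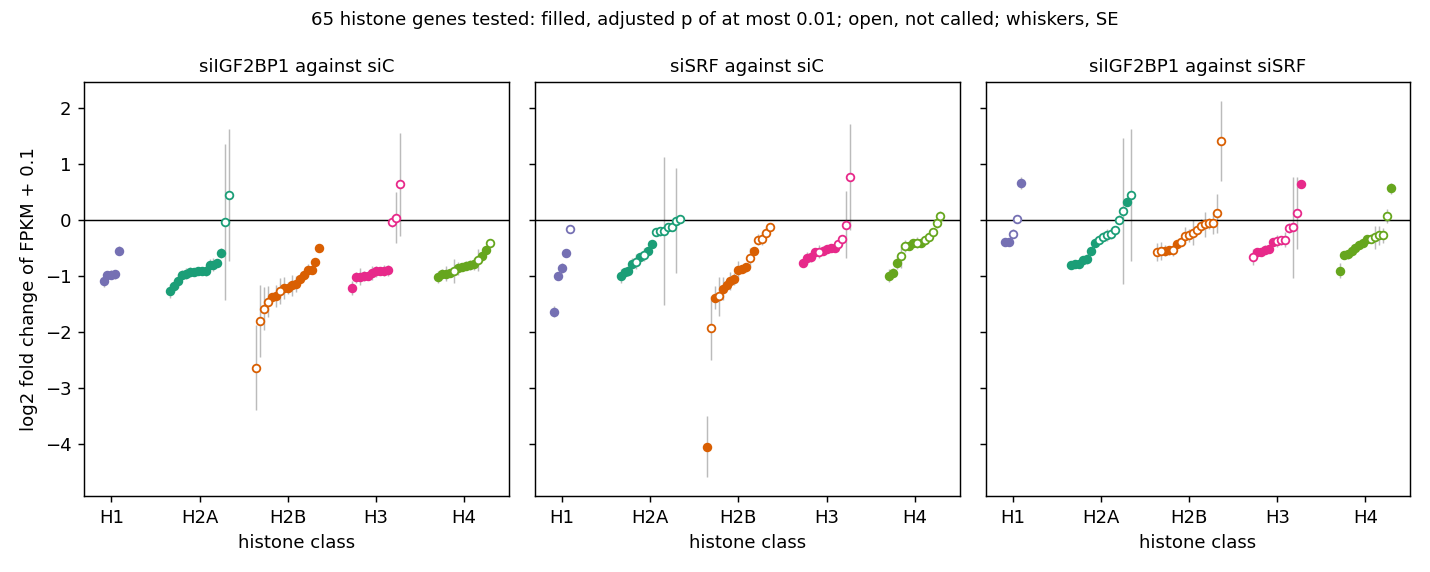
Log2 fold change of each tested histone gene in the comparisons of siIGF2BP1 with siC, siSRF with siC and siIGF2BP1 with siSRF, by class, with called genes filled, the others open and whiskers for the SE. The medians are −0.92, −0.56 and −0.34, and the called genes of both siC comparisons all lie below 0.

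Among the linker histones, HIST1H1C was 956, 1103 and 964 FPKM in siC, 544, 487 and 512 in siIGF2BP1 and 492, 511 and 507 in siSRF. Both knockdowns lay well below siC and overlapped each other. The log2 change was −0.97 (SE 0.08, adjusted p = 0.0011) in siIGF2BP1 and −1.0 (SE 0.07, adjusted p = 0.00051) in siSRF, and the direct difference was 0.03 with a 95% interval of −0.10 to 0.16. HIST1H1B was 965, 1039.8 and 1015 FPKM in siC, 553, 469 and 525 in siIGF2BP1 and 639.9, 688 and 687 in siSRF. The 3 groups did not overlap, with siSRF in the middle, and the changes were −0.97 (adjusted p = 0.00097) and −0.58 (adjusted p = 0.0014). HIST1H1E was 819, 960.2 and 848 FPKM in siC, 444, 368 and 421 in siIGF2BP1 and 451, 483 and 518 in siSRF, so that both knockdowns lay below siC. It fell by 1.09 and by 0.85 on the log2 scale (adjusted p = 0.0013 in both), and its direct difference of −0.24 was not called (adjusted p = 0.086).

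HIST1H1D took the other order and was described after its values were seen, as were the other members called higher in the direct comparison. It was 123, 132 and 122 FPKM in siC, 61.5, 60.5 and 70.4 in siIGF2BP1 and 34.7, 41.7 and 45.6 in siSRF. Every siSRF library lay below every siIGF2BP1 library. The direct difference was 0.66 (SE 0.11, adjusted p = 0.0053).

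Of the leading H2A genes, a pair of copies differed between the knockdowns. HIST1H2AI was 750.4, 822 and 688 FPKM in siC, 436, 360.0 and 373 in siIGF2BP1 and 461, 489 and 478 in siSRF. It fell in both (log2 change −0.95, adjusted p = 0.0023, and −0.66, adjusted p = 0.0021), and the direct difference of −0.29 was not called (adjusted p = 0.031). HIST2H2AA3 and HIST2H2AA4 are near-identical copies on chromosome 1, and their reads differed by at most 7.89% in any library. HIST2H2AA3 was 550.1, 608 and 594 FPKM in siC, 318, 298 and 321 in siIGF2BP1 and 467, 518 and 544 in siSRF. HIST2H2AA4 was 521, 590.2 and 575 FPKM in siC, 335, 273 and 299 in siIGF2BP1 and 454, 509 and 501 in siSRF. The siIGF2BP1 libraries were far below siC and the siSRF libraries just below it: both copies changed by −0.90 (adjusted p = 0.00055 and 0.002), whereas the siSRF values of −0.20 were not called (adjusted p = 0.11 and 0.099). The direct differences were −0.70 (adjusted p = 0.00053) and −0.69 (adjusted p = 0.0016).

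HIST1H2AC served in the study as the normalization transcript of its RNA immunoprecipitations. It was 180.2, 205 and 207 FPKM in siC, 105, 98.3 and 110.1 in siIGF2BP1 and 170.5, 188 and 187 in siSRF. The siIGF2BP1 libraries lay below all others, while siSRF overlapped siC. Its change was −0.92 (SE 0.07, adjusted p = 0.0009) in siIGF2BP1 and −0.12 (95% interval −0.29 to 0.06, adjusted p = 0.31) in siSRF, with a direct difference of −0.80 (adjusted p = 0.00021). HIST1H2AB and HIST2H2AC, picked after their values were seen, had a like order. HIST1H2AB was 394, 423 and 429 FPKM in siC, 234, 208 and 224 in siIGF2BP1 and 378, 379.9 and 391 in siSRF, with a direct difference of −0.79 (adjusted p = 0.00013). HIST2H2AC, whose promoter holds the CArG box shown above, was 260.2, 298 and 269.8 FPKM in siC, 171, 156 and 163 in siIGF2BP1 and 275, 287 and 276 in siSRF. Its siSRF change was 0.02 (95% interval −0.13 to 0.17, adjusted p = 0.86) and its direct difference −0.78 (adjusted p = 9.2e-05). Its neighbour HIST2H2AB was 193, 239 and 231 FPKM in siC, 140.0, 146 and 154 in siIGF2BP1 and 111, 114 and 127 in siSRF, with the siSRF libraries lowest and a direct difference of 0.32 (adjusted p = 0.0093).

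The 3 H2B genes of highest mean over all 9 libraries come first, a ranking that favours genes that fell less, and HIST1H2BK, the highest in siC alone (304 ± 76.5 FPKM), is given further on. HIST1H2BB was 224, 238 and 233 FPKM in siC, 162, 169 and 159.9 in siIGF2BP1 and 213, 236 and 193 in siSRF. HIST1H2BC was 278, 304 and 278 FPKM in siC, 182, 156 and 173 in siIGF2BP1 and 242, 285 and 217 in siSRF. HIST1H2BJ was 275, 294 and 262 FPKM in siC, 162, 138 and 151 in siIGF2BP1 and 224, 243 and 190.3 in siSRF. For each of them the siIGF2BP1 libraries were below all siC and siSRF libraries, and for the first pair siSRF overlapped siC. The siIGF2BP1 changes were −0.50, −0.75 and −0.88 (adjusted p = 0.0014, 0.0016 and 0.0011), and the siSRF values of −0.12, −0.22 and −0.34 were not called (adjusted p = 0.35, 0.2 and 0.049). Of the direct differences only that of HIST1H2BJ passed the threshold (−0.54, adjusted p = 0.0088). HIST3H2BB of the HIST3 cluster, named after its values were seen, was 17.5, 17.3 and 15.9 FPKM in siC, 6.23, 6.67 and 6.44 in siIGF2BP1 and 10.3, 9.47 and 8.49 in siSRF. Its changes were −1.37 (adjusted p = 0.00017) and −0.84 (adjusted p = 0.0013).

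For a few H2B genes 1 control library stood apart. Of the 60 members at or above 10 FPKM, siC replicate 3 was at a median of 98.2% of the mean of siC replicates 1 and 2, but it was below 75% for 7 members, all of them H2B genes. Among these it was 23.2% for HIST2H2BE, 42.1% for HIST2H2BF, 62.3% for HIST1H2BK, 64.3% for HIST1H2BE and 70.4% for HIST1H2BN. The others were HIST1H2BG (117, 119 and 81.5 FPKM in siC) and HIST1H2BO (73.1, 89.2 and 56.6 FPKM in siC). HIST2H2BE was 12.9, 15.8 and 3.34 FPKM in siC, 4.16, 1.62 and 2.21 in siIGF2BP1 and 1.79, 2.60 and 2.47 in siSRF. The siC replicate 3 value lay within the siIGF2BP1 range, and neither change was called (−1.80, adjusted p = 0.12, and −1.92, adjusted p = 0.058). Without siC replicate 3 the values were −2.49 (adjusted p = 0.021) and −2.61 (adjusted p = 0.0026). HIST2H2BF was 17.1, 15.7 and 6.92 FPKM in siC, 5.71, 3.35 and 3.51 in siIGF2BP1 and 4.17, 5.46 and 4.71 in siSRF, and was not called either (adjusted p = 0.04 and 0.034). Here siC did not overlap the knockdowns, and without siC replicate 3 the changes were −1.99 (adjusted p = 0.012) and −1.77 (adjusted p = 0.0026). HIST1H2BK was 337, 359 and 217 FPKM in siC, 153, 85.3 and 97.6 in siIGF2BP1 and 99.3, 119 and 124 in siSRF. All knockdown libraries were below siC, with changes of −1.45 (adjusted p = 0.017) and −1.38 (adjusted p = 0.0048).

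The leading H3 genes were ordered like the class sums. HIST1H3B was 1465, 1622 and 1432 FPKM in siC, 866, 726 and 815 in siIGF2BP1 and 1114, 1240.4 and 1219.7 in siSRF. The 3 groups did not overlap, and the change was −0.91 (adjusted p = 0.0021) in siIGF2BP1, while the siSRF value of −0.34 missed the threshold (adjusted p = 0.027). HIST1H3C was 1118, 1250.0 and 1221 FPKM in siC, 638, 615 and 662 in siIGF2BP1 and 800.4, 844 and 861 in siSRF. It fell by 0.90 (adjusted p = 0.00085) and by 0.52 (adjusted p = 0.0033) on the log2 scale. HIST1H3F was 1000.5, 1131 and 1039 FPKM in siC, 609.6, 503 and 597 in siIGF2BP1 and 598, 631 and 648 in siSRF. The knockdowns overlapped each other and both lay below siC, with changes of −0.89 (adjusted p = 0.0024) and −0.75 (adjusted p = 0.00098) and a direct difference of −0.14 (95% interval −0.34 to 0.06). HIST2H3A, used in the study as a negative control of its RNA immunoprecipitations, was 201, 239.8 and 219 FPKM in siC, 119, 97.7 and 109 in siIGF2BP1 and 150.1, 154 and 163 in siSRF. The groups were again ordered without overlap, with changes of −1.02 (adjusted p = 0.0015) and −0.49 (adjusted p = 0.005) and a direct difference of −0.52 (adjusted p = 0.003). All of its 50-base windows (100%) also occur in its copy HIST2H3C, and the reads of the copies differed by at most 5.13% in any library. The values of HIST2H3A can therefore not be assigned to this gene alone. HIST1H3E, one of the 4 genes of the opposite order, was 10.3, 13.2 and 11.8 FPKM in siC, 12.1, 11.4 and 11.1 in siIGF2BP1 and 8.0, 6.92 and 7.04 in siSRF. Its siIGF2BP1 libraries lay within the siC range (−0.02, 95% interval −0.26 to 0.21, adjusted p = 0.91), and it fell in siSRF (−0.68, adjusted p = 0.0064).

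The H4 genes had the class medians nearest 0 in both comparisons with siC, and the one farthest below 0 (−0.38) in the direct comparison. HIST1H4K was 1702, 1873 and 1808 FPKM in siC, 1058, 968 and 1038 in siIGF2BP1 and 1312, 1397 and 1369.8 in siSRF. HIST1H4J was 1328, 1522 and 1482 FPKM in siC, 849, 767 and 865 in siIGF2BP1 and 1072, 1190.0 and 1118 in siSRF. For this near-identical pair the groups were ordered without overlap, with siIGF2BP1 changes of −0.81 (adjusted p = 0.0016) and −0.80 (adjusted p = 0.0024). In siSRF HIST1H4K fell by 0.40 on the log2 scale (adjusted p = 0.0094), and the value of −0.36 for HIST1H4J was not called (adjusted p = 0.023). HIST1H4C was 956, 1028 and 1039 FPKM in siC, 699, 664 and 734 in siIGF2BP1 and 1074, 1173 and 958 in siSRF. Its siSRF libraries overlapped siC (0.08, 95% interval −0.14 to 0.30), and it fell by 0.53 in siIGF2BP1 (adjusted p = 0.0047). HIST1H4L, the H4 gene with a stem-loop of its own, had the lowest direct difference of all members. It was 100.5, 119.8 and 109 FPKM in siC, 69.4, 51.0 and 51.1 in siIGF2BP1 and 98.8, 115 and 104 in siSRF. The siSRF libraries overlapped siC and the siIGF2BP1 libraries lay below both, with a direct difference of −0.90 (SE 0.13, adjusted p = 0.003). HIST4H4, alone in its cluster, was 69.1, 83.5 and 80.0 FPKM in siC, 59.1, 54.3 and 60.8 in siIGF2BP1 and 41.0, 42.6 and 33.8 in siSRF. The order of the knockdowns was turned, with a siSRF change of −0.99 (adjusted p = 0.0019), a siIGF2BP1 value of −0.41 that was not called (adjusted p = 0.02) and a direct difference of 0.57 (adjusted p = 0.0052).

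**Figure D4:**
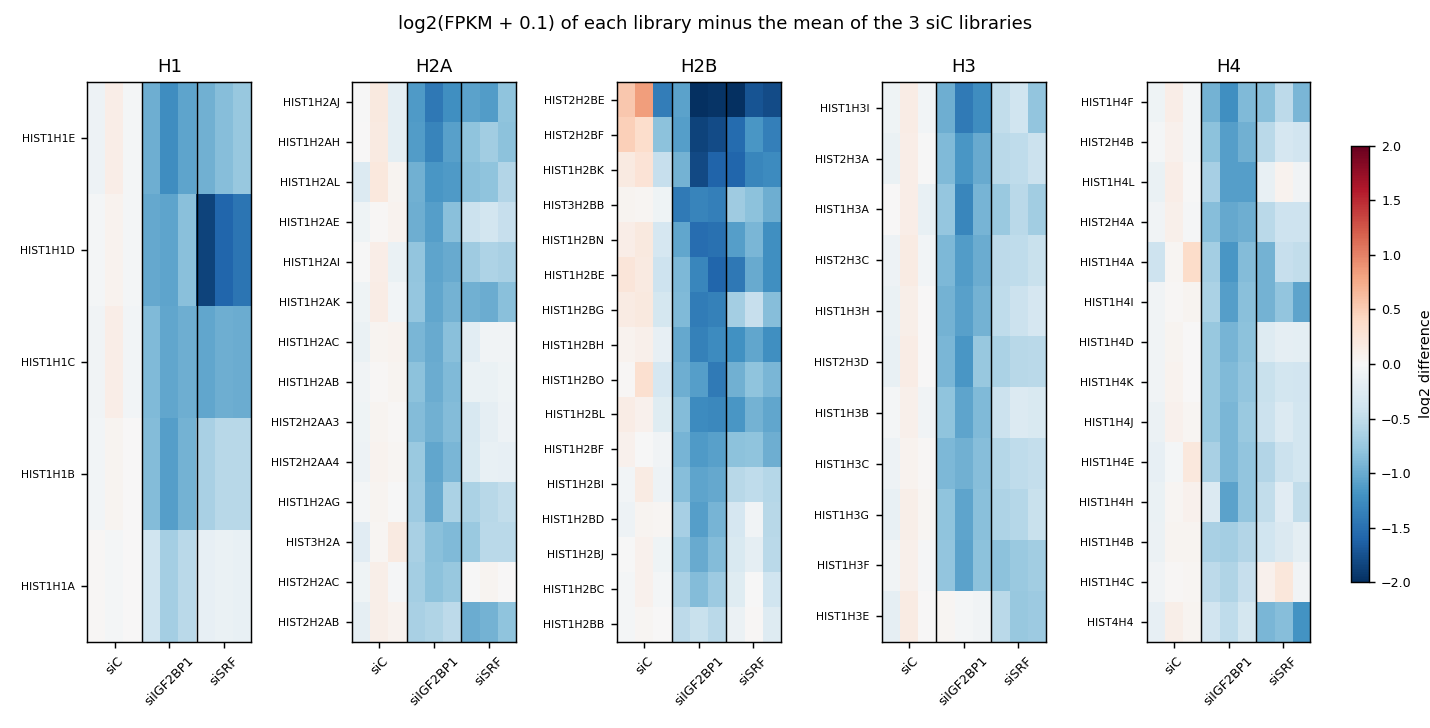
Log2 level of the 60 histone genes with a siC mean of at least 2 FPKM in each of the 9 libraries, relative to each gene's siC mean, with colours clipped at −2 and 2. The siIGF2BP1 columns are the lowest for most genes, and siC replicate 3, the right-hand siC column, is low for HIST2H2BE, HIST2H2BF and HIST1H2BK.

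In both comparisons with siC the extreme fold changes over the members came from genes with hardly any reads. HIST1H2BM had 8, 4 and 2 reads in siC, 0, 1 and 1 in siIGF2BP1 and none in siSRF, and gave the lowest value in both siC comparisons, of which only that in siSRF was called. Its fitted value depends on the pseudocount and is no bound. Set against a floor of 3 reads over the siSRF group, and with the siC reads taken as exact, it was at least 5.34-fold lower in siSRF. This covers the counting error of the siSRF reads only, and not that of the few siC reads. HIST1H2BM also had the highest direct difference of all members, 1.41, which was not called (adjusted p = 0.19). The highest value in both siC comparisons was that of HIST1H3J. It was 0, 0.380 and 0 FPKM in siC, 0, 0.354 and 0.305 in siIGF2BP1 and 0, 0.425 and 0.35 in siSRF. All groups of HIST1H3J overlapped, and its changes of 0.65 and 0.77 were not called (adjusted p = 0.69 and 0.62).

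The medians were also taken by position, stem-loop, promoter motif and length. The HIST1 cluster had medians of −0.92 in siIGF2BP1 and −0.56 in siSRF, and HIST2 had −0.95 and −0.49. Members with the common stem-loop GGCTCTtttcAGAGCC had medians of −0.98 and −0.64 over the 38 tested, those with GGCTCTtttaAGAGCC had −0.89 and −0.44 over 8, those with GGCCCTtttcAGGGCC had −0.78 and −0.41 over 9, and those with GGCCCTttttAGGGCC had −0.90 and −0.43 over 4. The 23 tested members with the octamer and the 36 without it had medians of −0.98 and −0.91 in siIGF2BP1 and −0.67 and −0.53 in siSRF. Gene models of at most 1000 bases and longer ones had medians of −0.91 and −0.98 in siIGF2BP1 and −0.55 and −0.61 in siSRF. The other short protein-coding genes, 51 of at most 1000 bases and at least 10 FPKM, had medians of −0.17 and −0.02, with 7 lower and 1 higher in siIGF2BP1 and 6 lower and 5 higher in siSRF.

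The genes that make, process and use histone messenger RNA were read from lists of their own. Of 12 replication-independent histone variants, whose transcripts are mostly polyadenylated, 11 were tested, and 4 fell in siIGF2BP1 with none higher (median −0.27), while 4 fell and 1 rose in siSRF (median −0.29). H2AFX, the variant that is phosphorylated at DNA breaks, fell from 109.5 ± 0.430 FPKM (SD, n = 3) to 69.5 ± 4.45 in siIGF2BP1 and 70.6 ± 5.83 in siSRF. The linker variant H1FX fell in siIGF2BP1 (log2 change −0.70) and in siSRF (−1.73). H3F3B, one of the genes for the replacement histone H3, fell in siIGF2BP1 (−0.35, adjusted p = 0.0076) and rose in siSRF (0.33, adjusted p = 0.0036). H2AFV fell in siIGF2BP1 (−0.52) and H1F0 in siSRF (−1.24).

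Of 8 factors that act in histone gene transcription, 1 fell and 1 rose in siIGF2BP1: CCNE1, a cyclin that drives entry into S phase, by −1.10 (adjusted p = 0.0052) and YY1 by 0.30. CCNE2, another cyclin of this list, had a positive value of 0.44 in siIGF2BP1 that was not called (adjusted p = 0.059). In siSRF only YY1 was called, at 0.31. CCNE1 and CCNE2 both had negative values there (−0.66, adjusted p = 0.02, and −0.33, adjusted p = 0.059). NPAT, the coactivator of the histone clusters, was 3.73 ± 0.295 FPKM in siC, 3.44 ± 0.132 in siIGF2BP1 and 3.92 ± 0.620 in siSRF, with changes of −0.11 (95% interval −0.35 to 0.13) and 0.06 (−0.27 to 0.39). Of 13 genes of 3′ end processing, CPSF2, a subunit of the cleavage complex, fell in siIGF2BP1 (−0.59, adjusted p = 0.0086) and rose in siSRF (0.51, adjusted p = 0.007), where ZNF473 rose too (0.57). SLBP was 129 ± 14.9 FPKM in siC, 119.6 ± 10.5 in siIGF2BP1 and 99.4 ± 3.60 in siSRF. Its changes of −0.11 (95% interval −0.36 to 0.14, adjusted p = 0.54) and −0.37 (adjusted p = 0.028) were not called. Of 9 genes of translation and decay, MIF4GD, which links SLBP to the translation machinery, fell in siIGF2BP1 (−0.69, adjusted p = 0.0038). In siSRF LSM1 and the exonuclease gene ERI1, both of histone mRNA decay, rose by 0.75 and 0.66.

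The partners of the histone proteins and the cell cycle genes were read in the same way. Of 17 chaperones and assembly factors, 2 fell and 2 rose in siIGF2BP1 (median −0.12), among them CHAF1A, a subunit of the assembly factor CAF-1, at −0.52, and NAP1L1 and ATRX at 0.57 and 0.60. In siSRF 5 fell (median −0.11), with the smallest p for the FACT subunit SSRP1 (−1.34), ASF1B (−0.88) and CHAF1A (−0.54). Of 24 S-phase genes, 3 fell and 1 rose in siIGF2BP1 (median −0.11), with RRM2 at −0.49, UHRF1 at −0.46 and the helicase subunit MCM4 at 0.42. In siSRF 11 fell and none rose (median −0.25), with the smallest p for CDT1 (−0.67), PCNA (−0.57) and TK1 (−0.68) and the largest fall for MCM6 (−0.79). In the direct comparison 2 S-phase genes were lower and 7 higher in siIGF2BP1, with a median of 0.15, beside −0.34 for the histone genes. Of 11 genes of G2 and mitosis, 4 fell in siIGF2BP1 (median −0.38), PLK1, CDC20, CCNB1 and, with the largest fall, AURKB (−0.87), and 6 fell in siSRF (median −0.36), with the smallest p for CCNB1, CENPF and MKI67. CCNE2, MCM6 and AURKB were named after their values were seen. Cell cycle phase was not measured, and its part in the histone values was not tested. Of 7 other RNAs without a poly(A) tail, only RN7SL2 and TERC could be tested, and neither was called in any comparison.

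**Figure D5:**
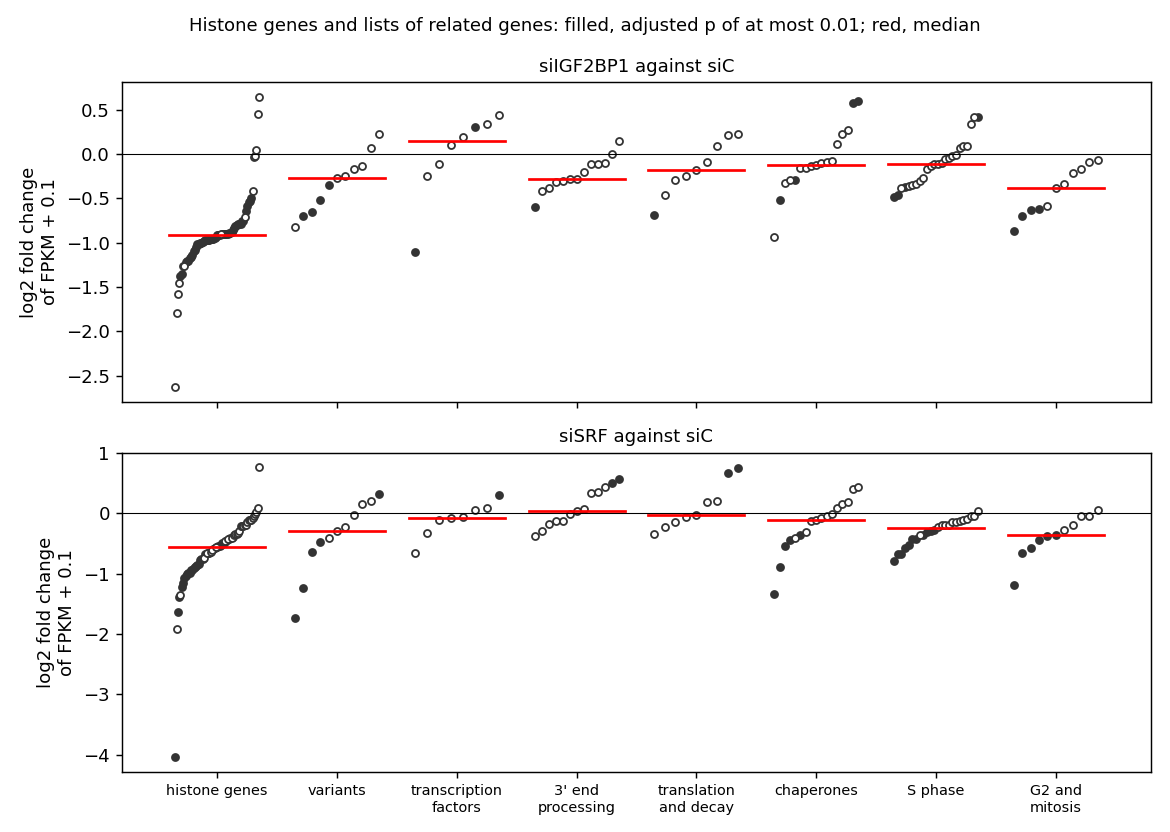
Log2 fold change of the genes of each list in siIGF2BP1 and in siSRF against siC, 1 point per gene, filled where called, with the list's median as a red line. The histone genes have medians of −0.92 and −0.56, while the S-phase genes have medians of −0.11 and −0.25.

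Outside the members, the 5 genes whose log2 levels over the 9 libraries were most like the mean of the 65 tested members, among 10320 protein-coding genes compared, were COMMD4 (Pearson r = 0.993), ZWINT, a kinetochore gene (0.986), SLC7A5, an amino acid transporter (0.983), LRRC8A, an anion channel subunit (0.981), and NSD2, a histone methyltransferase (0.980). The 9 points are the same libraries in 3 groups, so the values mainly describe the order of the groups.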

How the data were processed

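Total RNA of 9 ES-2 libraries was depleted of ribosomal RNA and sequenced with a strand-marking kit. Per the submitters' processing notes and the study's methods, the authors used cutadapt 1.14, HISAT2 2.1.0, SAMtools 1.5 and featureCounts 1.5.3 on hg38 with Ensembl 89, and edgeR 3.18.1 for TMM scaling. How multi-mapping, overlapping and strand-specific reads were counted is not given in the sources used here, and matters for near-identical histone copies. The authors deposited FPKM values, 1 table per knockdown with the same siC values in both, and 6 columns of their own fold changes, p-values and FDR, which were not used.

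The tests ran limma 3.58.1 (R 4.3.3) with a trend on log2(FPKM + 0.1) and kept genes whose mean FPKM over the 6 libraries compared reached 0.1. Fold changes are on that scale and so are too small for low genes. The Benjamini-Hochberg adjustment covered every gene kept, and calls were made at 0.01. Exact permutation of 3 against 3 cannot go below a two-sided p of 0.1, so no such test was made. Whole reads were recovered from 100% of the values above 0 (within 0.01 read), and limma-voom on them was an alternative, calling 1891 genes lower and 1914 higher in siIGF2BP1 and 2343 and 2780 in siSRF. The scripts were tested on simulated data. Libraries held 6421764 to 9416175 reads on genes. The 95% intervals come from limma and cover the spread between libraries, while the floor of 3 reads covers only the counting error of the siSRF reads.

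The members and the gene lists were chosen with earlier results of these data known. The rule for named members took the 3 genes of highest mean FPKM in each class, the RIP control genes HIST1H2AC and HIST2H3A, the lowest and highest fold change in each comparison and any gene called in opposite directions against siC, of which there was none. Other members with values were chosen after these were seen. From each list at most 3 called genes of smallest p were taken, with SLBP, NPAT, IGF2BP1 and SRF. Of the members, 67 matched GENCODE v44 by Ensembl ID and 5 by symbol. Alternatives were the pseudocount, the filter, the scaling, the threshold, adjustment over protein-coding genes, robust eBayes, limma-voom, all libraries in 1 fit, a length trend, a replicate block, leaving out each library and, added after seeing the data, joint removal of length and GC trends. Same-numbered libraries did not deviate together.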

Additional observations from a re-analysis of the deposited data

Results flagged for a closer look

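The knockdowns differed, by the direct limma test of siIGF2BP1 against siSRF, in 29 members, 25 lower and 4 higher of 65 tested, against 11.2% and 8.82% of all genes. Of these, the 19 described above are given here with the log2 difference. Lower in siIGF2BP1 were the H1 gene HIST1H1B (−0.38), and the H2A genes HIST1H2AC (−0.80), HIST1H2AB (−0.79), HIST2H2AC (−0.78), HIST2H2AA3 (−0.70) and HIST2H2AA4 (−0.69). The H2B genes lower in siIGF2BP1 were HIST1H2BJ (−0.54) and HIST3H2BB (−0.53). The H3 genes were HIST1H3B (−0.57), HIST2H3A (−0.52) and HIST1H3C (−0.39), and the H4 genes were HIST1H4L (−0.90), HIST1H4C (−0.61), HIST1H4J (−0.45) and HIST1H4K (−0.41). Higher in siIGF2BP1 were HIST1H1D (0.66), HIST1H3E (0.65), HIST4H4 (0.57) and HIST2H2AB (0.32), and these 4 calls became 1 when any siIGF2BP1 library was left out. As a share of the 65 tested, these 4 lie below the 8.82% of all genes. The 19 are singled out because the effect of 1 knockdown differed from that of the other in a test of the difference itself. Every value passed an adjusted p of 0.01 in that test.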

How the results depend on the processing

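The ratios of summed reads stayed between −1.14 and −0.31 (log2) in all 84 recomputed values, none of which changed direction. Without TMM scaling no ratio moved by as much as the combined SD of both groups. Leaving out 1 of 3 libraries cannot give a shift of that size, so those values do not test it. In siIGF2BP1 the count of members that fell was 16 to 38 when 1 library was left out, and in siSRF 13 to 27. In the direct comparison it was 10 to 18 lower and 1 to 4 higher. Each of these fits held fewer libraries, and lower calls over all genes were 224 to 329, 482 to 673 and 1577 to 1951. Under the other settings without a block the count of members was 48 to 59 in siIGF2BP1 and 32 to 53 in siSRF. In the direct comparison it was 20 to 37 lower and 3 to 4 higher, and no setting gave a member higher than siC. limma-voom gave the 53 in siSRF, and these include all 35 called by the test on FPKM. The same replicate numbers do not pair the libraries: the deviations of same-numbered libraries correlated at −0.04 to 0.02 over 9 pairs, 1 of which correlated best with its own number. With the replicate number as a block, 2 members were called lower in siIGF2BP1, 8 in siSRF, and 5 lower and 2 higher in the direct comparison. Calls over all genes dropped too, to 31 lower of 22292 in siIGF2BP1 and 244 lower of 21857 in siSRF. In the direct comparison they were 1203 lower and 872 higher of 22311. Without TMM scaling, 1408 genes in all were lower and 1234 higher in siSRF, against 1167 and 1498 with it, and 2126 and 2346 in the direct comparison, against 2492 and 1968. With length and GC trends taken out, a setting chosen after seeing the data, 51 members fell in siIGF2BP1 and 32 in siSRF. Over all genes 982 and 1098 were called lower under that setting. For single named genes, 1018 values from other settings and 410 with 1 library left out kept their side of the threshold, 65 and 141 no longer passed it, and 28 and 5 passed it newly. Depth limits the 12 members with at most 8 reads in any library.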
